A study of Mus musculus with 70 samples.

Results

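The comparison described here was that of histotripsy-treated with control B16F10 tumors in sorted CD45- cells, 3 days after the ablation. It held 7 histotripsy-treated and 4 control libraries, 11 of the 70 libraries of the series, chosen by their labels, and the 10921 of 55487 named genes with enough counts to be tested. B16F10 is a pigmented mouse melanoma line. It was grown subcutaneously in either flank of C57BL/6 mice. The mice were males and females of 6 to 8 weeks of age, put into groups without randomization. About 10 days after inoculation, mice received either partial histotripsy of 1 flank tumor (histotripsy-treated, with the untouched tumor of the other flank called histotripsy-abscopal) or a sham procedure (control), and nothing else distinguished the groups in the labels. Histotripsy breaks tissue mechanically, by focused ultrasound pulses that form bubble clouds, and part of each treated tumor was left standing. Tumors were dissociated and sorted by flow cytometry on CD45, the surface protein of blood-derived immune cells, so that the CD45- fraction held melanoma cells together with any other cell without CD45. A further 7 histotripsy-abscopal CD45- day 3 libraries shared the fit and its estimate of the spread. The labels do not say which libraries came from 1 animal or whether animals were pooled, so p-values here measure the spread between libraries. The B16F10 line is a single cultured line, and tumors under the skin are not in the melanoma's usual tissue layer.

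Cells that survive an injury switch on immediate early genes, transcription factors and feedback regulators whose RNA appears without new protein synthesis, and heat shock and endoplasmic reticulum (ER) chaperones, which refold or retain damaged proteins. Ligands of the TGF-beta and BMP family, which are released from matrix and from injured tissue, signal through SMAD proteins and induce their own inhibitors, among them SMAD7 and SKIL, and BMP signaling induces the ID proteins, which block basic helix-loop-helix transcription factors and differentiation. Fibroblasts around a wound deposit collagen and secrete chemokines.

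Depth was 1620780 to 2403889 counts per control library and 1854131 to 3495650 per treated library, which sets the precision of genes at low counts per 1000000 (CPM, a gene's count divided by the library's total count and multiplied by 1000000). The sort was checked on Ptprc, the gene of CD45, which had 0 to 1 counts in control and 0 to 3 counts in treated libraries. The melanoma was checked on its pigment genes: the 29 markers of the melanocyte lineage summed to 39900 to 43600 CPM in control and 30800 to 43400 CPM in treated libraries, with Dct, an enzyme of melanin synthesis, at a mean of 24203 CPM in controls. Neutrophil markers summed to at most 3.76 CPM in control and 12.9 CPM in treated libraries, and none of the 20 passed the filter on low counts. No 2 libraries of a group agreed within sampling noise (smallest chi-square per degree of freedom 2.48). In the CD45+ libraries of day 3, which hold host cells, Xist, the RNA of the inactive X chromosome, had 623 to 1877 counts and the Y-linked Ddx3y had 0, so no male host was seen among them.

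By the quasi-likelihood test of edgeR, with p adjusted by the Benjamini-Hochberg method as in all comparisons here, 10 genes differed between treated and control tumors at an adjusted p under 0.05, 8 higher and 2 lower, which was 0.0916% of the genes tested. The genes that rose belonged to 3 groups: regulators of TGF-beta and BMP signaling (Id3, Smad7, Skil), stress-induced early genes (Atf3, Ier5, Sgk1), and a pair of others (Dpep1 and Gm26177, a U6-like small nuclear RNA gene). Those that fell were Kdm7a and Rora. At an unadjusted p under 0.05 the share was 10.6% of genes, with 5.96% higher and 4.61% lower. The median log2 fold change over all tested genes was 0.009. In 0.595% of genes every treated library lay above every control library, and in 0.65% every treated library lay below; 9 of the 10 genes were of this kind.

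**Figure D1:**
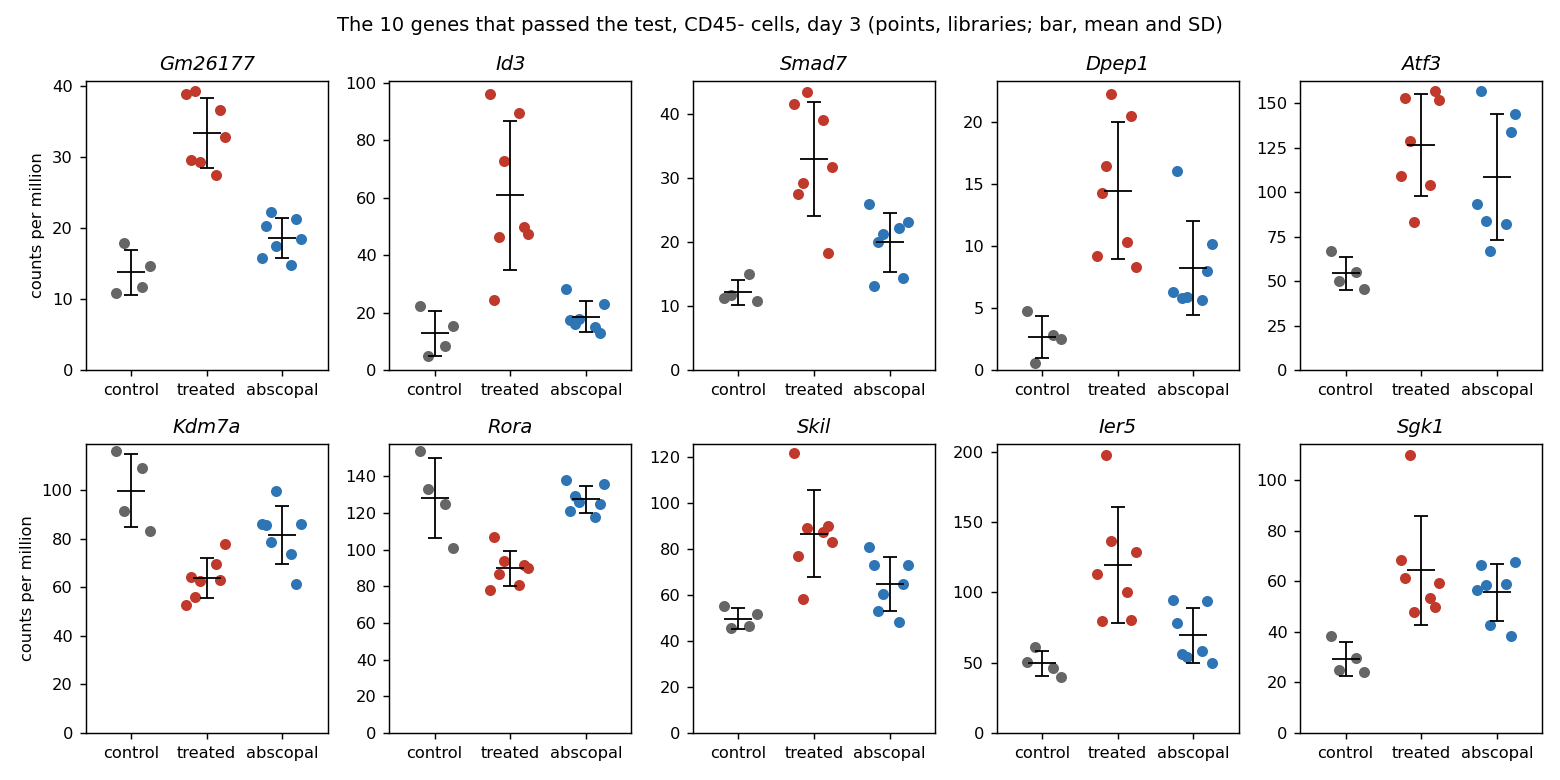
Level of each of the 10 genes that passed the test, in CPM on a linear axis from 0, for the control, histotripsy-treated and histotripsy-abscopal CD45- day 3 libraries. Each point is a library and the bars give the mean and SD. For 9 genes the treated points lie wholly above or, for Kdm7a, wholly below the control points, and for Rora 1 treated library (107 CPM) exceeds the lowest control (101 CPM).

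The gene with the smallest p, Gm26177 (ENSMUSG00000094738, GRCm38 chr10:54311225-54311331, minus strand), is annotated as a small nuclear RNA and resembles U6 RNA. U6 RNA forms the catalytic core of the spliceosome, and mammalian genomes hold many copies that differ from it by a few bases. In this annotation 346 small nuclear RNA genes had the length of Rnu6 (107 bases) and at least 80% identity to it, and 18 of them were tested. Gm26177 was 92.5% identical to Rnu6. The libraries were made by a 3' tag protocol (QuantSeq), and which transcript gave the reads counted for Gm26177 was not tested. Its nearest annotated neighbor, the processed pseudogene Gm47968, lay 94502 bases away.

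Gm26177 stood at 17.9, 11.7, 10.8 and 14.6 CPM in the 4 control libraries. The treated libraries ran from 27.4 to 39.2 CPM with a median of 32.7. All 7 treated libraries lay above all 4 controls, and the log2 fold change was 1.28 ± 0.173 (SE; adjusted p = 0.00266). It was the only gene of the 10 that passed in all 11 fits that left out 1 library. Gm26127 did not pass the test (log2 fold change 0.76, adjusted p = 0.143), although its treated libraries, 66.5 to 114 CPM, lay above its controls, 54.3, 42.3, 48.7 and 60.7 CPM. Gm24018 (1.11, adjusted p = 0.227) and Gm24492 (1.54, adjusted p = 0.162) had overlapping groups. Of the 18 tested U6-like genes, Gm26177 among them, 12 were higher in treated tumors, with a median log2 change of 0.478. At an unadjusted p under 0.05, 7 were higher, against 5.96% of all genes. Over the other 15 tested small nuclear RNA genes 13 were higher, 4 of them at that p, with a median of 0.132. Summed over the 18 genes the groups overlapped, at 232.5 to 381.5 CPM in controls and 325.6 to 691.4 CPM in treated libraries. Reads from near-identical copies may be split or dropped by the counting, so the level of any 1 copy is uncertain, and Rnu6 itself had at most 2 counts in any library.

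Among regulators of TGF-beta and BMP signaling, 3 genes rose. Id3 (chr4:136143497-136145755) encodes an inhibitor of basic helix-loop-helix factors. Its control libraries held 4.94, 8.45, 22.4 and 15.4 CPM, and its treated libraries 24.3 to 96.0 CPM with a median of 49.7. The groups did not overlap, although the lowest treated library, replicate 5, was close to control replicate 3, and the log2 fold change was 2.21 ± 0.359 (adjusted p = 0.0216). Smad7 (chr18:75367529-75395935), the inhibitory SMAD that removes TGF-beta receptors, was at 11.7, 15, 11.2 and 10.8 CPM in controls and at 18.3 to 43.5 CPM (median 31.7) in treated tumors. Its groups did not overlap, the controls spread little, and the log2 fold change was 1.43 ± 0.242 (adjusted p = 0.0256). Skil (chr3:31095058-31122577), which encodes the SMAD corepressor SnoN, was at 45.7, 46.5, 55.2 and 51.6 CPM in controls and at 58.3 to 122 CPM (median 87.4) in treated tumors. Here too every treated library exceeded every control, replicate 3 by little, and the log2 fold change was 0.79 ± 0.152 (adjusted p = 0.0445).

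The other tested ID genes, Id2 and Id1, lay on the same side without passing the test, and Id4, at 0 to 5 counts, was too low to be tested. Id2 (chr12:25093799-25097140) was at 1150, 1260, 931 and 1060 CPM in controls and at 1330 to 2080 CPM (median 1700) in treated libraries, with no overlap, a log2 change of 0.63 and an adjusted p of 0.0640. Id1 was at 5.55, 7.51, 20.3 and 15.4 CPM in controls and at 18.3 to 45.2 CPM in treated tumors, with overlap of 3 treated libraries with the highest control and a log2 change of 1.08 ± 0.281 (adjusted p = 0.179). Of the 49 genes listed for this pathway 34 were tested, 24 of them higher, with 12 higher and 1 lower at an unadjusted p under 0.05 and a median log2 change of 0.17, against the 0.009 and the 5.96% and 4.61% of all genes. In a fit with a term for the level of fibroblast markers, described below, 16 of the 34 were higher. At that p, 8 were then higher and 2 lower, with a median of -0.06. Without treated replicates 1 and 3, 7 of 33 were higher and 1 lower at that p, with a median of 0.15. The tested ligands Tgfb1, Tgfb2 and Tgfb3 did not pass, nor did the receptors or the signaling SMADs. In 4 members (Id2, Id3, Smad7, Skil) all treated libraries lay above all controls, against 0.595% of all genes. In 1, the signaling SMAD Smad5, all lay below, against 0.65% of all genes. Summed over the list, the 7 treated libraries held 2660 to 3780 CPM and the controls 2280, 2500, 2120 and 2150 CPM. Id2 alone gave 931 to 1260 CPM of the control sums.

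Stress-induced early genes formed the other group. Atf3 (chr1:191170296-191218039), a transcription factor induced by many kinds of cell stress, was at 50, 55.4, 67.2 and 45.8 CPM in controls and at 83.5 to 157 CPM (median 129) in treated tumors. No libraries overlapped, and the log2 fold change was 1.21 ± 0.215 (adjusted p = 0.0272). Ier5 (chr1:155096361-155099636), an early response gene linked to heat shock factor activity, was at 61.1, 46.5, 50.8 and 39.5 CPM in controls and at 79.5 to 198 CPM (median 113) in treated tumors. The highest value was that of replicate 3, all 7 exceeded the controls, and the log2 fold change was 1.28 ± 0.248 (adjusted p = 0.0445). Sgk1 (chr10:21882184-21999903), the serum- and glucocorticoid-induced kinase, was at 24.7, 29.6, 38.4 and 24.1 CPM in controls and at 48.0 to 110 CPM (median 59.2) in treated tumors. Replicate 3 again stood above the rest, the groups did not overlap, and the log2 fold change was 1.14 ± 0.224 (adjusted p = 0.0481).

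Several further early genes had fully separated groups but missed the threshold. Gadd45g, a growth arrest gene, was at 9.87, 23.9, 12.5 and 7.07 CPM in controls and at 27.4 to 88.3 CPM in treated tumors (log2 fold change 1.82, adjusted p = 0.0643). Klf4, a transcription factor of epithelial and stem cell states, was at 176, 205, 284 and 256 CPM in controls and at 321 to 499 CPM in treated tumors (0.81, adjusted p = 0.0936). Btg2, an antiproliferative gene, was at 4.94, 8.92, 12.9 and 15.4 CPM against 15.6 to 51.1 CPM (1.40, adjusted p = 0.142). In the abscopal libraries Klf4 was at 306 to 660 CPM, also above every control. Gadd45g (12.5 to 38 CPM) and Btg2 (9.5 to 23.7 CPM) overlapped the controls there. Ier2, another early gene, had 1 treated library within the control range (0.81, adjusted p = 0.0643). Of the 49 genes listed as immediate early or stress-induced, 46 were tested and 40 were higher in treated tumors. At an unadjusted p under 0.05, 25 were higher and 0 lower, against 5.96% higher and 4.61% lower of all genes, and the median log2 fold change was 0.58. In 8 of the 46 the groups did not overlap, all 8 higher, against 0.595% higher and 0.65% lower of all genes. The list sum was 3180 to 4560 CPM in controls and 4490 to 6820 CPM in treated libraries, 6 of which exceeded all controls. In abscopal libraries it was 3760 to 6040 CPM, with a median of 4360, against 3650 in controls and 5290 in treated libraries.

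**Figure D2:**
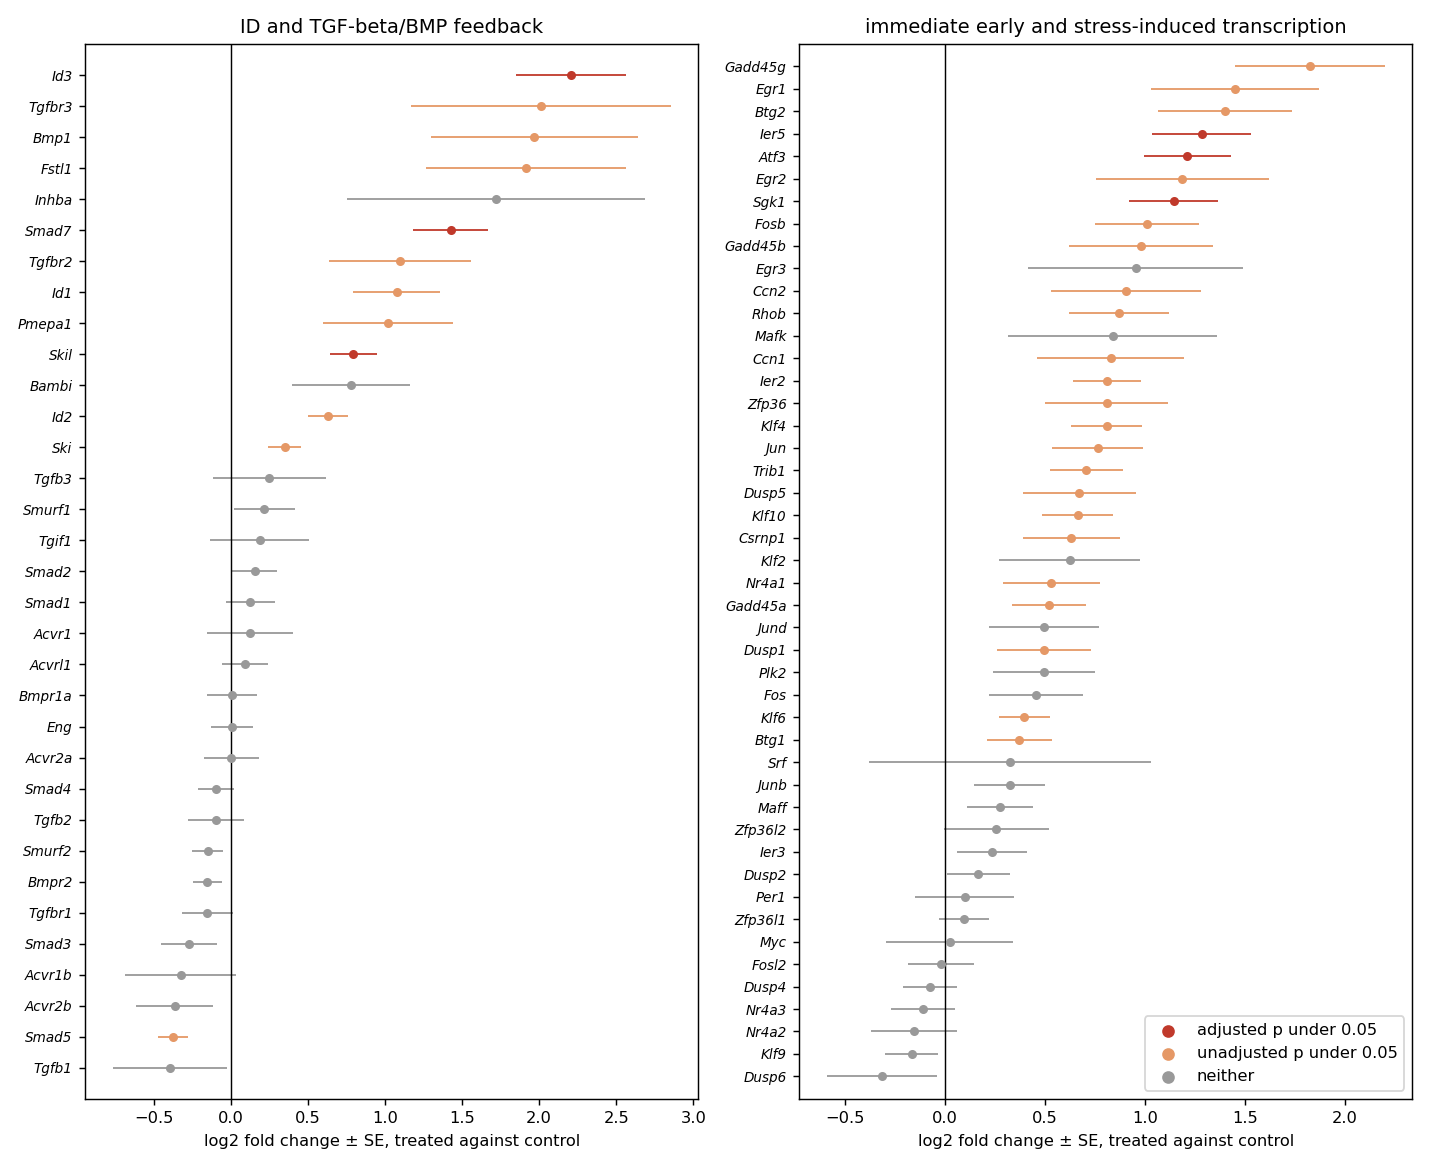
Log2 fold change with its standard error, histotripsy-treated against control, of the tested members of the lists of TGF-beta and BMP feedback genes (33 of 34 shown) and of immediate early and stress-induced genes (46 genes), CD45- day 3. Red points passed the test at an adjusted p under 0.05 (3 in each list) and orange points had an unadjusted p under 0.05. In the early gene list 40 of the 46 points lie right of 0.

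Dpep1 (chr8:123186242-123201812) encodes a membrane dipeptidase that splits glutathione products and leukotriene D4. It was nearly absent from controls, at 0.617, 2.82, 4.74 and 2.50 CPM (1, 6, 11 and 6 counts), and was at 8.31 to 22.2 CPM (median 14.3) in treated tumors. The groups did not overlap, and the log2 change of 2.37 ± 0.412 (adjusted p = 0.0267) rests on few control counts.

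On the side that fell, Kdm7a (chr6:39136623-39206789), a demethylase of repressive histone marks, was at 91.3, 109, 116 and 83.2 CPM in controls and at 52.9 to 77.9 CPM (median 62.9) in treated tumors. All treated libraries lay below all controls, with a log2 change of -0.65 ± 0.117 (adjusted p = 0.0272). Rora (chr9:68653786-69388246), a nuclear receptor of the circadian clock and of metabolism, was at 133, 125, 154 and 101 CPM in controls and at 78.2 to 107 CPM (median 89.8) in treated tumors. One treated library, replicate 5, lay above the lowest control, and the log2 fold change was -0.51 ± 0.0974 (adjusted p = 0.0445).

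Of the 23 listed Kdm genes 20 were tested and 16 were lower in treated tumors, 4 at an unadjusted p under 0.05, with 1 higher at that p, against 5.96% higher and 4.61% lower of all genes, and a median of -0.18. Kdm7a alone passed. Kdm3a, a demethylase induced by hypoxia, had a log2 change of -0.38 (adjusted p = 0.356), and Kdm1b one of 0.55 (adjusted p = 0.282).

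The lower genes closest to the threshold were of mixed function. 4930435M08Rik (chr14:118044974-118046864), an antisense transcript inside the Dct locus, was at 95.6, 66.7, 87.9 and 61.6 CPM in controls and at 21.6 to 53 CPM in treated tumors (log2 fold change -1.12, adjusted p = 0.0515). The groups were separate, but the strand setting of the counting is not given in the sources used here, so reads of this transcript and of Dct may not be told apart. Dct itself had a log2 change of -0.22 (adjusted p = 0.552). The zinc finger genes Zfp292 (-0.45, adjusted p = 0.0643) and Zfp467 (-1.05, adjusted p = 0.0936), the semaphorin Sema4c (-0.70, adjusted p = 0.0643), Lcorl (-0.69, adjusted p = 0.0952) and Nbeal1 (-0.53, adjusted p = 0.0952) completed the 10 genes with the next smallest p.

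The calls depended on the number of libraries, above all on the 4 controls. Leaving out control replicates 1, 2, 3 and 4 in turn left 1, 1, 2 and 3 called genes, and leaving out treated replicates 1 to 7 in turn left 9, 6, 10, 11, 17, 6 and 5. Among these 11 fits Id3 passed in 8, Smad7, Dpep1 and Kdm7a in 7, Atf3 in 6, Sgk1 in 4, Ier5 and Rora in 3 and Skil in 2. The fold changes of the 10 genes kept their sign in all 11 fits, and their highest adjusted p was 0.258, for Sgk1. DESeq2 called 49 genes, the 10 among them, and limma-voom called Gm26177 alone.

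Treated libraries differed widely in RNA of fibroblasts. The 30 fibroblast markers summed to 565, 1670, 252 and 179 CPM in the 4 control libraries and to 7650, 2840, 17500, 239, 471, 3740 and 1560 CPM in treated replicates 1 to 7. Treated replicates 1, 2, 3 and 6 exceeded all controls, while replicates 4, 5 and 7 lay within their range. In such bulk samples, fewer cells of a type and less RNA per cell cannot be told apart. Col1a1, the main chain of type I collagen, was at 117, 405, 34.9 and 7.90 CPM in controls and at 17.9 to 5020 CPM (median 905) in treated libraries, with a log2 change of 3.32 that did not pass (adjusted p = 0.264). Of the 30 markers 27 were tested and all 27 had a positive fold change, with a median of 2.71. At an unadjusted p under 0.05, 25 were higher, against 5.96% of all genes. Some, such as Col6a1 (0, 9, 0 and 0 counts in controls), passed the filter on low counts through the libraries where they were high. The median and this share therefore carry little weight. None of the 27 passed the test after adjustment, the smallest being Col6a1 (4.84, adjusted p = 0.162). Col6a1 passed by DESeq2 (adjusted p = 0.014), and with no filter on low counts Col6a1 (5.35e-06), Col1a1 (adjusted p = 0.000199), Col3a1 (0.000299) and Mmp2 (0.00115) passed.

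Chemokine RNA was highest in the libraries with the most fibroblast RNA. Cxcl1, which attracts neutrophils, was at 3.08, 20.7, 4.74 and 0.416 CPM in controls and at 111, 30.8, 238, 1.46, 2.86, 72.2 and 18.3 CPM in treated replicates 1 to 7. Its highest treated values were in replicates 3 and 1, the libraries with the highest fibroblast sums, and its lowest in replicates 4 and 5 (log2 fold change 3.24, adjusted p = 0.252). Ccl2, the monocyte attractant, had a log2 change of 3.0 (adjusted p = 0.318) and Cxcl10, an interferon-induced attractant of T cells, 1.28 (adjusted p = 0.298). With no filter on low counts Cxcl1 (adjusted p = 0.00014), Ccl2 (0.00195) and Cxcl10 (0.00959) passed. Of the 34 listed chemokines 13 were tested and 12 were higher, with a median of 1.98. At an unadjusted p under 0.05, 7 were higher, against 5.96% of all genes. As some of these genes passed the filter only through the libraries where they were high, the median and this share carry no weight. With a term for the fibroblast sum in the fit, 2 of the 13 were higher, and 2 were higher and 3 lower at that p. Without treated replicates 1 and 3, 1 of the 10 chemokines and 6 of the 26 fibroblast markers that then passed the filter had an unadjusted p under 0.05. Without control replicate 2, the richest control, the median over the 27 fibroblast markers was 4.09, with the same limit from the filter.

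The 10 called genes were then read against this order. Without treated replicates 1 and 3, 6 genes were called, and all 6 (Gm26177, Id3, Smad7, Atf3, Skil, Sgk1) were among the 10, while Dpep1 (adjusted p = 0.0647), Kdm7a (0.0677), Ier5 (0.0677) and Rora (0.0706) missed the threshold. With a term for the log2 fibroblast sum in the fit, 19 genes were called, 6 of the 10 among them. Smad7 then had a log2 change of 1.11 (adjusted p = 0.0529), Ier5 of 0.78 (0.106), Sgk1 of 0.89 (0.115) and Rora of -0.51 (0.079). Atf3 (1.36, adjusted p = 0.0048) and Id3 (2.02, adjusted p = 0.0203) passed in that fit.

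**Figure D3:**
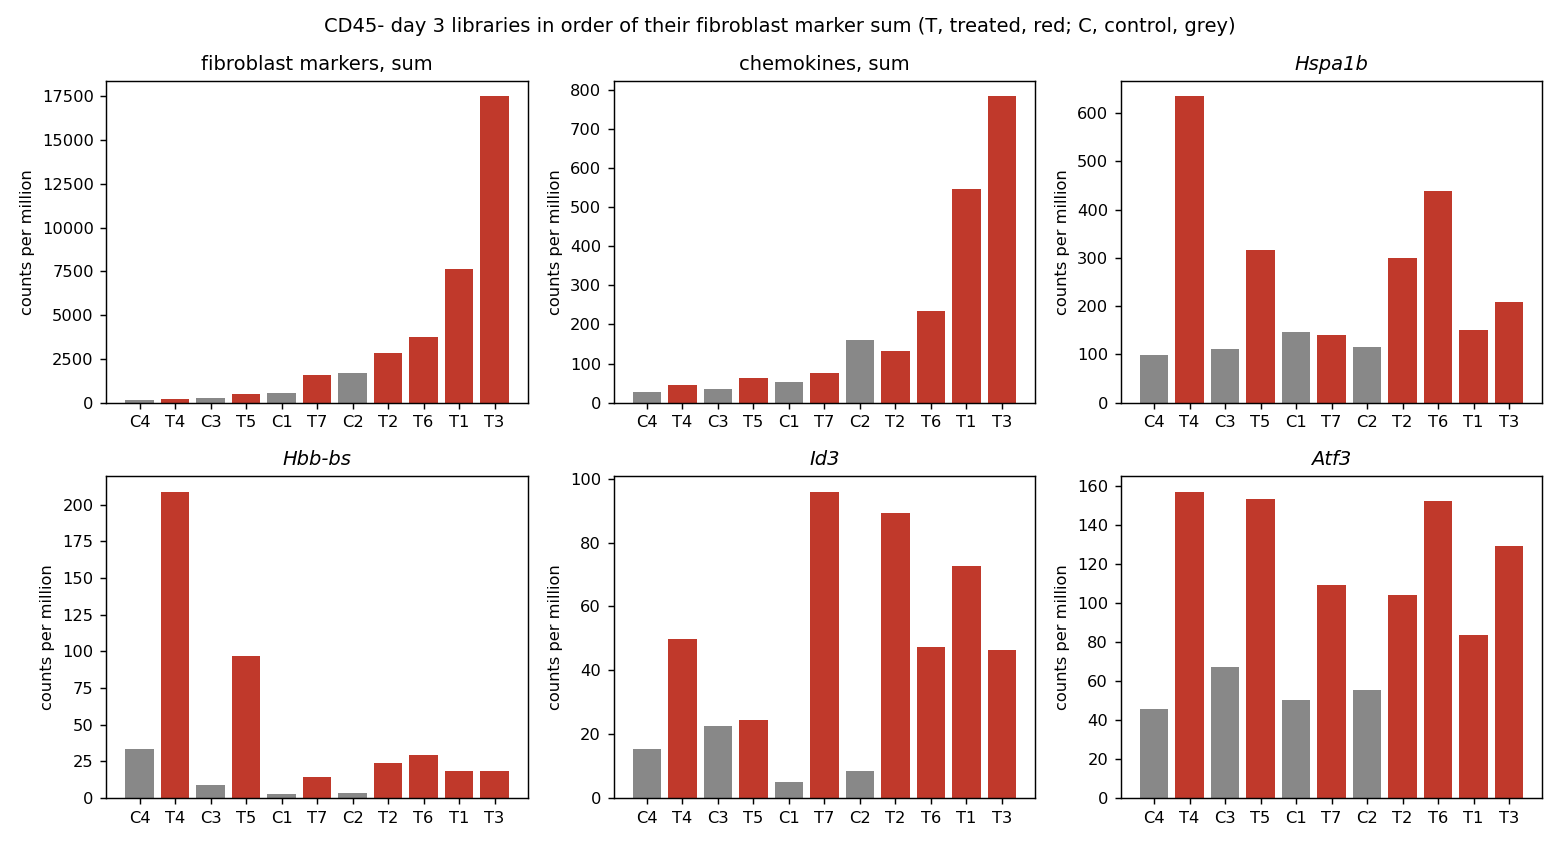
The 11 CD45- day 3 libraries ordered from the lowest to the highest sum of 30 fibroblast markers, with bars in CPM from 0 for that sum, the chemokine sum, Hspa1b, Hbb-bs, Id3 and Atf3 (T, histotripsy-treated, red; C, control, grey; numbers are replicates). The chemokine sum is highest in the libraries at the right end, 783 CPM in treated replicate 3, whereas Hspa1b and Hbb-bs are highest in treated replicate 4, which has the second lowest fibroblast sum (239 CPM).

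Heat shock and ER chaperones were higher in most treated libraries without a gene that passed. Hspa1b, an inducible HSP70, was at 146, 116, 112 and 98.6 CPM in controls and at 151, 300, 208, 635, 316, 438 and 141 CPM in treated replicates 1 to 7. All but replicate 7 exceeded the controls, with the highest value in replicate 4 (log2 fold change 1.39, adjusted p = 0.149). With the fibroblast term it passed (1.71, adjusted p = 0.0123), and so did 4 erythroid genes, as described below. Its near-identical neighbor Hspa1a was at 0.431 to 5.17 CPM in controls (2.88, adjusted p = 0.277), and how the counting divided reads between the copies is uncertain. Hspa8, the constitutive HSP70 (0.42, adjusted p = 0.235), and Dnajb4, an HSP40 cochaperone (0.49, adjusted p = 0.262), lay on the same side. Of 50 listed cytosolic and mitochondrial chaperones 47 were tested, 33 were higher, and 12 were higher and 1 lower at an unadjusted p under 0.05, against 5.96% higher and 4.61% lower of all genes, with a median of 0.08.

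In the ER, Hspa5, the chaperone BiP, was at 1640, 1900, 1860 and 2010 CPM in controls and at 1890 to 2980 CPM (median 2640) in treated libraries, 5 of which exceeded the controls (0.41, adjusted p = 0.288). Dnajb11, which assists BiP (0.41, adjusted p = 0.254), and the disulfide isomerase P4hb (0.35, adjusted p = 0.28) had similar values. Of 50 listed genes 49 were tested, 36 were higher, and 7 were higher and 0 lower at an unadjusted p under 0.05, against 5.96% higher and 4.61% lower of all genes, with a median of 0.14. The list sum was 9690 to 10800 CPM in controls and reached 13200 CPM in treated replicate 4.

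Genes of TNF signaling, interferon responses and lytic cell death gave few differences among the members with enough counts. Tnf (0 to 2 counts per control or treated library) and Ripk3, a kinase of necroptosis (0 to 12 counts), were too low to be tested. Of 40 genes of TNF and NF-kB feedback 30 were tested, with 1 at an unadjusted p under 0.05 (Nfkbia, the NF-kB inhibitor, 1.07, adjusted p = 0.364). Of 47 type I interferon-induced genes 42 were tested, 2 higher and 1 lower at that p, and of 45 genes of the interferon gamma response and MHC class I 36 were tested, with 0 in either direction. Of 38 genes of necroptosis, pyroptosis and other lytic death 29 were tested, 2 higher and 2 lower, with a median of -0.00. These shares did not stand above the 10.6% of all genes except in the last list, where 4 of 29 is 13.8%. Among 42 genes of ferroptosis, glutathione and iron 35 were tested, and 6 were higher and 0 lower at that p, 17.1% against 5.96% of all genes, the smallest p being that of Txnrd1, thioredoxin reductase (0.45, adjusted p = 0.149). Of 28 danger signal genes 18 were tested, 6 higher and 1 lower, together 38.9% against 10.6%. Without the 2 treated libraries richest in fibroblast markers, 1 of the 18 was higher and 1 lower at that p. With the fibroblast term 2 of the 18 were higher and 2 lower at that p. That list shares Hspa1a, Hspa1b and Il33 with other lists, and Il33, an alarmin, had a log2 change of 2.15 (adjusted p = 0.375). Of 38 listed inflammatory cytokines and prostaglandin enzymes 10 were tested and 4 were higher at that p, with few members past the filter. With the fibroblast term 0 of the 10 were higher and 1 lower at that p. Without the 2 treated libraries richest in fibroblast markers, 0 of the 9 then tested were higher and 1 lower.

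Glycolysis and hypoxia genes lay mostly on the lower side. Of 44 listed genes 43 were tested and 37 were lower in treated tumors, 9 of them and 1 higher gene at an unadjusted p under 0.05, against 4.61% and 5.96% of all genes, with a median of -0.19. Mxi1, a MYC antagonist, was at 101, 103, 101 and 82.8 CPM in controls and at 51.2 to 99.6 CPM (median 68.3) in treated tumors, where 6 libraries lay below the controls (-0.47, adjusted p = 0.227). Vegfa, the angiogenic factor (-0.42, adjusted p = 0.235), and Ndrg1, a hypoxia-induced stress gene (-0.40, adjusted p = 0.235), were similar, whereas Pfkfb4, a regulator of glycolysis, had a positive fold change (1.01, adjusted p = 0.25). None of these passed.

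No difference in cell cycle genes was detectable at this depth: of 52 tested, 0 had an unadjusted p under 0.05 in either direction, with a median of 0.01, and Mki67, the proliferation marker, had a log2 change of -0.10 (adjusted p = 0.871). Of 38 p53 targets 32 were tested, 2 higher and 5 lower at that p (against 5.96% higher and 4.61% lower of all genes), with Btg2 highest and Sesn1, a stress-induced sestrin, at -0.73 (adjusted p = 0.254). Matrix proteases (24 of 39 tested, 9 higher and 0 lower, median 0.53) and wound repair genes (28 of 45 tested, 14 higher and 2 lower, median 0.60) had larger shares at that p than all genes, and Mmp2 (2.50, adjusted p = 0.276) is also among the fibroblast markers. Has1 (1, 0, 0 and 1 counts in controls) and Mmp23 (0, 6, 2 and 4) passed the filter only through libraries where they were high. The shares and medians of both lists therefore carry little weight. Without treated replicates 1 and 3, 1 of the 21 proteases then tested was higher and 0 lower, and of the 24 wound repair genes then tested 3 were higher and 2 lower.

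No melanocyte lineage gene passed the test. Of 29 listed 27 were tested, 7 lower and 1 higher at an unadjusted p under 0.05, against 4.61% lower and 5.96% higher of all genes, with a median of -0.06. S100b, a calcium-binding protein of the neural crest lineage, was at 622, 572, 454 and 499 CPM in controls and at 321 to 459 CPM in treated tumors (-0.43, adjusted p = 0.193). Trpm1, a melanocyte channel (-0.36, adjusted p = 0.254), Mc1r, the receptor that sets pigment type (-0.31, adjusted p = 0.276), and Tyr, tyrosinase (-0.26, adjusted p = 0.462), had negative fold changes, and Pmel, the melanosome fibril protein, was level (0.01, adjusted p = 0.995). The lowest list sum, 30800 CPM, was in replicate 3, the library richest in fibroblast markers. With the fibroblast term 3 of the 27 were lower and 0 higher at an unadjusted p under 0.05, with a median of -0.15. Without treated replicates 1 and 3, 4 were lower and 0 higher, with a median of -0.13. The part of fibroblast RNA in the list's values was not otherwise tested.

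Markers of other cell types were read in the same way. Endothelial markers (10 of 25 tested, 1 higher and 1 lower) summed to 131 to 277 CPM in controls and 137 to 386 CPM in treated libraries. Monocyte and macrophage markers (4 of 26 tested, 0 in either direction) summed to 528 to 573 CPM and 442 to 599 CPM, nearly all from Apoe, a lipoprotein gene not restricted to these cells (mean 549.6 CPM in controls and 496 CPM in treated libraries), dendritic cell markers (6 of 14 tested, 0 in either direction) to at most 164 CPM, and T and NK cell markers (1 of 24 tested) to at most 6.58 CPM. Of B cell and skeletal muscle markers 0 were tested, of keratinocyte markers 1 and of adipocyte markers 3. Among erythroid genes 6 were tested, 4 higher and 1 lower at an unadjusted p under 0.05, against 5.96% higher and 4.61% lower of all genes. Hbb-bs, adult beta globin, was at 2.47, 3.29, 9.05 and 33.7 CPM in controls and at 18.3, 23.9, 18.4, 209, 96.7, 29.6 and 14.6 CPM in treated replicates 1 to 7 (2.20, adjusted p = 0.281). With the fibroblast term 4 of the 6 passed, Hbb-bs among them (3.20, adjusted p = 0.00326). The high libraries of Hbb-bs, replicates 4 and 5, were poor in fibroblast markers, and its part in the values of Hspa1b, also highest in replicate 4, was not tested. Mylk, myosin light chain kinase and a smooth muscle marker, was at 428, 449, 299 and 272 CPM in controls and at 186 to 275 CPM in treated tumors (-0.73, adjusted p = 0.0952). Mylk passed by DESeq2 (adjusted p = 0.00742), with no filter on low counts (0.000905) and with the fibroblast term (-0.86, adjusted p = 0.0242). The other 3 tested genes of that list had positive values, Acta2, smooth muscle actin, 2.23 (adjusted p = 0.254), Rgs5 1.05 (adjusted p = 0.599) and Mcam 0.04 (adjusted p = 0.981), and the median of the 4 was 0.55.

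**Figure D4:**
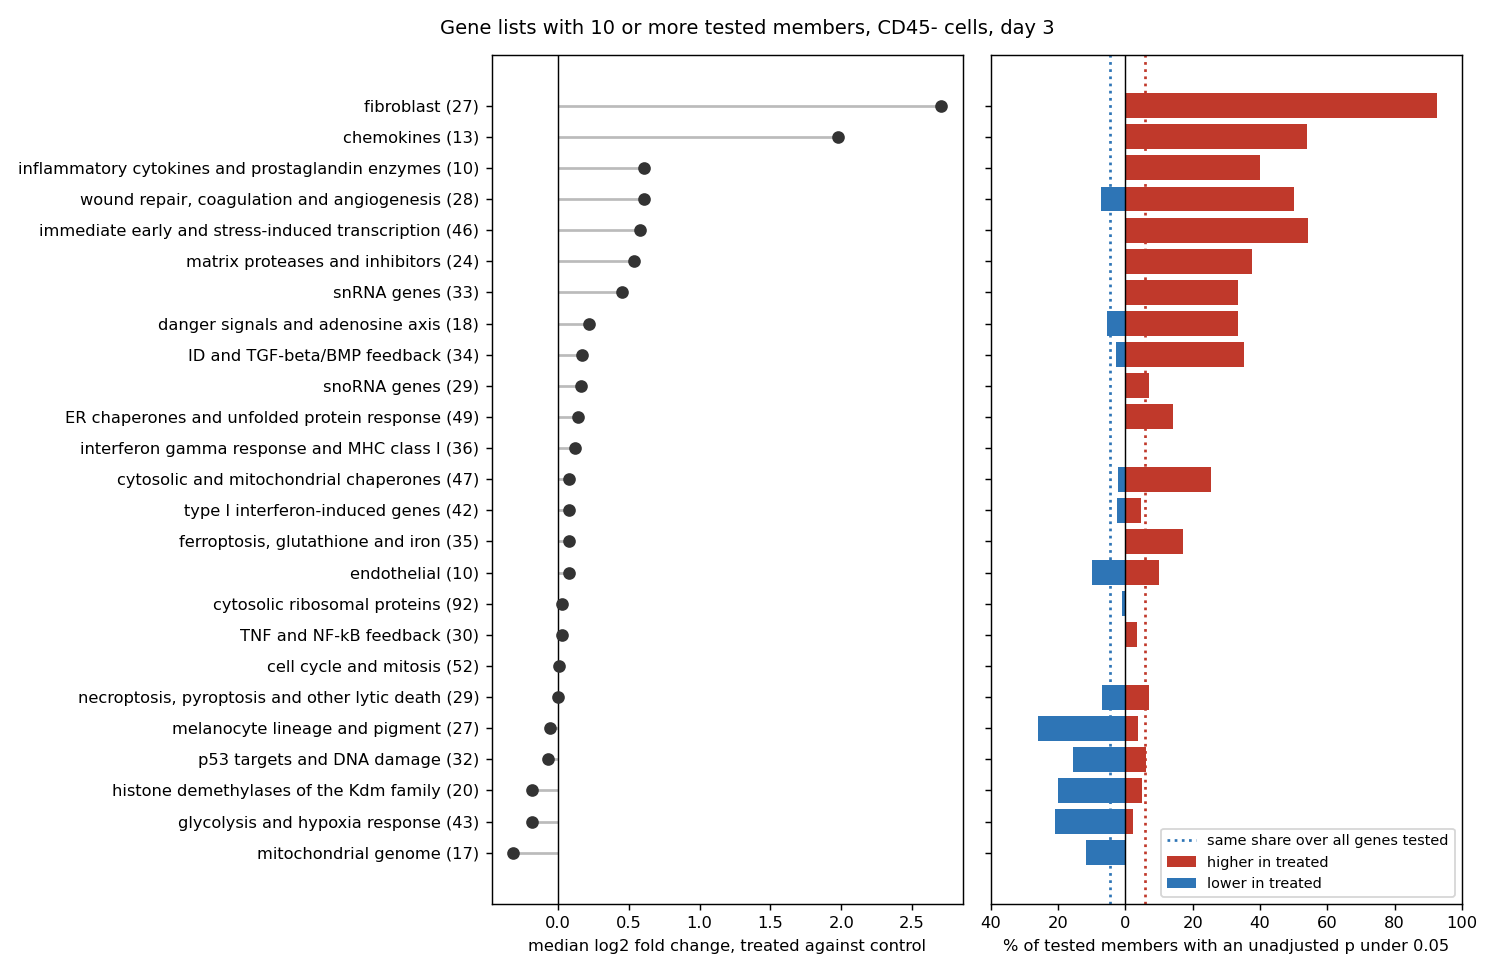
Left, the median log2 fold change (histotripsy-treated against control, CD45- day 3) of each gene list with 10 or more tested members, the number of which is given in brackets. Right, the percent of those members with an unadjusted p under 0.05, higher (red) or lower (blue) in treated tumors, with dotted lines at the shares over all genes tested (5.96% and 4.61%). The highest medians, of fibroblast markers (2.71) and chemokines (1.98), carry little or no weight, as some members passed the filter through libraries where they were high. The lowest medians are those of the mitochondrial genome (-0.32), glycolysis (-0.19) and Kdm (-0.18) lists.

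The same 10 genes were then read in the other tumors and fractions. Against histotripsy-abscopal tumors, 16 genes (0.147%) passed by edgeR and 138 by DESeq2. Among the 16 were Gm26177 (log2 fold change 0.82, adjusted p = 0.0139), Id3 (1.68, adjusted p = 0.0139), Rora (-0.53, adjusted p = 0.0139), Id2 (0.62, adjusted p = 0.0215) and Id1 (1.48, adjusted p = 0.0139). Atf3 (0.21, adjusted p = 0.632) and Sgk1 (0.20, adjusted p = 0.669) did not pass there. Both comparisons share the treated libraries, and the comparison of abscopal with control tumors shares the controls. In the latter 0 genes (0%) passed by edgeR's test, with 567 at an unadjusted p under 0.05 and 13 called by DESeq2. Its log2 fold changes were 1.0 for Atf3, 0.95 for Sgk1, 1.55 for Dpep1, 0.74 for Smad7, 0.53 for Id3, 0.46 for Gm26177 and 0.02 for Rora, none past the threshold.

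At day 7, 3 treated and 11 control CD45- libraries were compared, and 0 of 10996 genes (0%) passed, with 669 at an unadjusted p under 0.05 and 0 by DESeq2. There Id3 had a log2 change of 0.11, Smad7 of -0.05, Skil of -0.21, Gm26177 of -0.40 and Atf3 of -0.87 (adjusted p = 0.597). The difference of the effects of day 3 and day 7 was tested as an interaction over 11548 genes, and 0 (0%) passed, with 695 at an unadjusted p under 0.05 and 13 by DESeq2. The closest of the 10 was Atf3, whose day 3 effect exceeded its day 7 effect by 2.08 on the log2 scale (adjusted p = 0.0599). For Id3 the difference was 2.09 (adjusted p = 0.16) and for Gm26177 1.71 (adjusted p = 0.247). No gene of the 10 passed this test by edgeR. By DESeq2, 7 of the 10 passed it, namely Atf3 (2.05, adjusted p = 0.00033), Id3 (2.12, adjusted p = 0.0276), Smad7, Skil, Sgk1, Ier5 and Gm26177 (1.74, adjusted p = 0.039), and the same 7 passed by edgeR with no filter on low counts. Whether their effects differed between the days therefore depended on the method.

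In the CD45+ cells of day 3 tumors, 800 of 10264 genes (7.79%) passed between treated and control. Skil was the sole gene of the 10 to pass there, with a log2 change of 0.78 (adjusted p = 0.0167). Id3 had 0.01 (adjusted p = 0.983), Smad7 0.01 (adjusted p = 0.979) and Atf3 0.06 (adjusted p = 0.848), and Dpep1 had too few counts to be tested. The difference between the fractions was not tested.

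**Figure D5:**
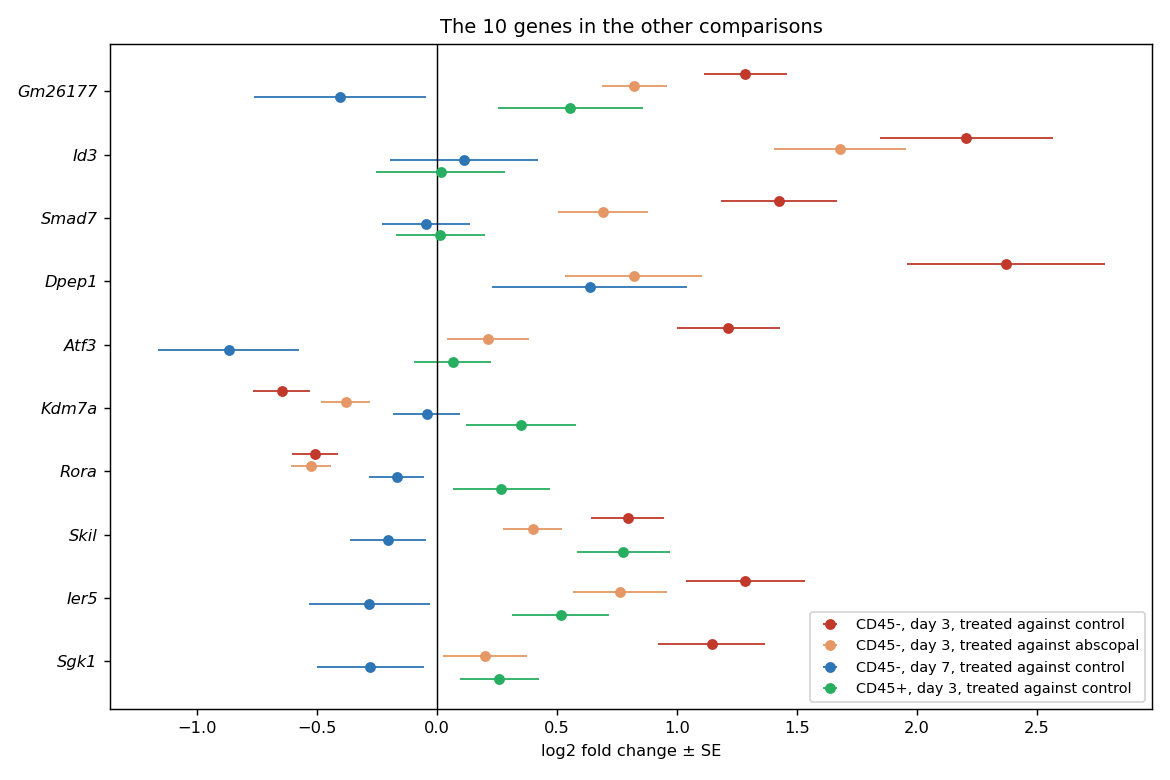
Log2 fold change with its standard error of the 10 genes in 4 comparisons: CD45- day 3 treated against control (red) and against abscopal (orange), CD45- day 7 treated against control (blue) and CD45+ day 3 treated against control (green, with Dpep1 not tested). At day 7 the 10 values run from -0.87 for Atf3 to 0.64 for Dpep1.

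Promoters of the called genes were read from RefSeq (GRCm38.p6, 250 bases before to 50 after each start). Of the 10 genes 7 matched, with 12 windows, 6 of them from Sgk1. CAGAC, the core of a SMAD-binding element, was found on either strand in 4 of the 7 genes (Ier5, Id3, Dpep1, Sgk1), against 49.6% of all 32851 windows. The Id3 window (chr4:136143572-136143871) lay wholly inside the annotated gene, so its CAGAC sites are not upstream of the annotated gene start. GGCGCC, a BMP-responsive SMAD motif, was in 0 of the 7 (11.9% of all windows), as were TGACGTCA, the cyclic AMP response element bound by ATF and CREB factors (1.79%), and TGACTCA, the AP-1 site (5.2%). TTCNNGAA, a heat shock element, and CACGTG, an E-box, were each in Sgk1 alone (8.52% and 7.15%). The shares count windows, of which a gene may have several. A pair of windows is shown, that of Dpep1 because the gene rose from a few counts, and that of Btg2 because it was the early gene with separate groups that held a full TGACGTCA. Capitals mark CAGAC in Dpep1, and TGACGTCA and GGCGCC in Btg2, and each run gives the 250 bases before the start.

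Dpep1 (chr8:123185985-123186234, plus strand): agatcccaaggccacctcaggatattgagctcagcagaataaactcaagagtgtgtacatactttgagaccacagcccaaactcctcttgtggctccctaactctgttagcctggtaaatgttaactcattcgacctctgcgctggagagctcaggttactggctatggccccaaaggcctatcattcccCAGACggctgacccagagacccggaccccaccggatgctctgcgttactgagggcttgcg
Btg2 (chr1:134079156-134079405, minus strand): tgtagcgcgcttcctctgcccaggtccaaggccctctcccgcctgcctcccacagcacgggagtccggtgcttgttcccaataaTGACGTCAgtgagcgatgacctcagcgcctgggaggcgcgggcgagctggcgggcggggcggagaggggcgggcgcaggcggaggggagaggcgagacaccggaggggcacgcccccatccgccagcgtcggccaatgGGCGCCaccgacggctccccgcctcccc

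In the Dpep1 window CAGAC began 60 bases before the start, and in the Btg2 window TGACGTCA began 166 and GGCGCC 28 bases before it. Btg2 was higher in all 7 treated libraries without passing the test, as given above.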

How the data were processed

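Sorted CD45- cells were sequenced by a 3' tag protocol (QuantSeq). The authors deposited whole-number counts per gene and library, and per the labels reads were trimmed with Trim Galore 0.5.0, aligned to GRCm38 with STAR 2.6.0 and counted with featureCounts; strand setting and treatment of multiply aligned reads are not given in the sources used here. Libraries were grouped by title.

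Genes were filtered with filterByExpr (minimum count 10, minimum total 15) and tested with edgeR 4.0.16 in R 4.3.3, quasi-likelihood with TMM scaling, in 1 fit of the treated, control and abscopal groups (18 libraries), with Benjamini-Hochberg adjustment and a threshold of 0.05. A fit over the CD45- libraries of both days gave the interaction. All tests are two-sided. Alternatives were DESeq2 1.42.0, limma 3.58.1 (voom), other scalings and filters, fewer samples, a replicate block, and, chosen after seeing the data, a fibroblast term and a fit without 2 libraries. Named were the called genes, the 10 genes with the next smallest p, up to 4 tested members of each list with the smallest p, the most abundant markers, and fixed genes; values of some of these are left out for brevity. H19 and the promoters shown were chosen after their values were seen. The comparison, the gene lists and the genes were chosen with earlier results of these data known. Intervals of counts cover counting error only. Coordinates are from GENCODE M21 (GRCm38), and sequences of promoters from RefSeq (GRCm38.p6). A gene and the sequences of the U6-like genes are not reported here. Tables of the other fractions and days were used only for the 10 genes, Id1, Id2 and the check of host sex.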

Additional observations from a re-analysis of the deposited data

Results flagged for a closer look

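In groups of 4 to 10 libraries, the highest or lowest library was set against the rest by its gap to the nearest other library as a share of the group's range. Of 124 such tests on the named genes 12 exceeded Dixon's 95% limit, where chance gives about 1 in 20, and the causes were not tested. In treated tumors, replicate 3 stood highest for Sgk1 (0.67 of the range), Cxcl10 (0.612), Col6a1 (0.62) and Col3a1 (0.574). Replicate 4 stood highest for Hbb-bs (0.578), and replicate 7 for Gm24018 (0.65). In controls, replicate 2 stood highest for Cxcl10 (0.914), Ccl2 (0.886), Col6a1 (1, the other 3 controls being at 0 counts), Kdm1b (0.838) and Mmp2 (0.966). Control replicate 4 stood lowest for Mxi1 (0.866). Replicate 3 of the treated and replicate 2 of the control group were also the libraries with the highest fibroblast sums of their groups, 17500 and 1670 CPM.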

How the results depend on the processing

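The number of called genes was 10 in the fit reported, 49 with DESeq2, 1 with limma-voom, 9 with library totals for TMM factors, 11 with DESeq2's size factors in edgeR, 312 with no filter on low counts, 16 with a minimum count of 30 and 2 (Gm26177 and Atf3) with only the 2 groups compared. Leaving out 1 library gave 1 to 17. The fibroblast term gave 19 and the fit without the 2 libraries richest in fibroblast markers 6. The replicate block gave 26 (17 higher, 9 lower, 8 of the 10 shared, without Ier5 and Rora). Same-numbered treated and control libraries correlated at 0.225, 0.043, -0.265 and 0.457, and only replicate 4 correlated best with its own number, so the numbers were not taken to pair the libraries. The interaction of day gave 0 called genes, 13 with DESeq2, 0 with library totals, 22 with no filter, 1 with only treated and control libraries, and 0 to 1 leaving out 1 library (1 without day 3 treated replicates 1 or 4, day 7 treated replicate 3 or day 7 control replicates 1 or 8). Of 1287 values of the 62 named genes under the alternatives, 1113 kept direction and side of the threshold, 81 lost the call, 82 gained one and 11 changed sign. Pmel (log2 fold change 0.01) was at -0.0868 with the replicate block and from -0.028 to 0.0617 leaving out 1 library, below 0 without treated replicates 4, 5 or 6 (-0.0165, -0.0239, -0.028) or control replicate 4 (-0.0093). With the fibroblast term, Nfkbia was at -0.19, Cxcl1 at -0.0835, Ccl2 at -0.46, Il33 at -0.62, Col3a1 at -0.12 and Mmp2 at -0.16. The causes were not tested. With 4 controls, genes of low counts (1 to 11 per control library for Dpep1) were measured with little precision.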

Other observations

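H19, the maternally expressed long noncoding RNA of the Igf2 locus, chosen after its values were seen, had counts of 3, 8, 3 and 0 in the 4 control libraries and 160, 165, 359, 1, 25, 77 and 18 in treated replicates 1 to 7. Its lowest treated libraries, replicates 4, 5 and 7, were also the lowest in fibroblast markers. The log2 fold change was 4.87 ± 1.08 by edgeR (adjusted p = 0.0952), 3.78 without treated replicates 1 and 3 (adjusted p = 0.173) and 2.20 with the fibroblast term (adjusted p = 0.12). H19 passed by DESeq2 (4.86, adjusted p = 0.00138) and by edgeR with no filter on low counts (adjusted p = 1.99e-07).

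No gene of the mitochondrial genome passed the test. Of 37 genes 17 were tested and 16 had a negative fold change, 2 with an unadjusted p under 0.05 (4.61% of all genes were lower at that p), with a median of -0.32. The summed levels of the groups overlapped, at 65000 to 122000 CPM in controls and 66100 to 104000 CPM in treated libraries. The methionine tRNA mt-Tm was at 126, 100, 44.0 and 66.6 CPM in controls and at 14.8 to 72.7 CPM in treated tumors (-1.15, adjusted p = 0.213). Of 92 tested genes with symbols that begin with Rpl or Rps 0 were higher and 1 lower at that p, with a median of 0.03, and the lower gene, Rps6ka5, encodes a kinase and not a ribosomal protein. Of the 29 tested small nucleolar RNA genes 2 were higher and 0 lower, and of 7 tested ribosomal RNA genes 0 were higher and 2 lower.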
